A study of Homo sapiens with 6 samples.

Results

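Immediate early response genes are the first genes that a cell transcribes after a growth factor, a stress or another signal, without the need for new protein. The messages of 10 of them, *FOS*, *FOSB*, *JUN*, *JUNB*, *EGR1*, *IER2*, *IER3*, *DUSP1*, *ATF3* and *MCL1*, were described in parental and onvansertib-resistant H526 cells. They were taken by name from the 62710 genes of the expression table, and all 10 were present. H526 is an established small cell lung cancer line, and onvansertib inhibits the mitotic kinase PLK1. Each group was sequenced in 3 libraries, parental libraries 1 to 3 and resistant libraries 7 to 9, from RNA taken at 3 separate times. The resistant cells came from parental cells by growth in onvansertib for over a year, at concentrations raised from 10 nM as growth recovered, with 75 nM as the last one. Whether the drug was present at harvest is not stated. Neither a serum stimulus nor a starvation step is named for the harvests. No engineered allele is named for either group, and the genomes of the lines were not compared here. The resistant cells are 1 derived line set against 1 parental line, so the spread between libraries covers repeated harvests and not repeated selections. A change kept from the long selection and a direct response to drug in the medium cannot be told apart.

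Signals through the MAP kinases ERK, JNK and p38 reach these genes by factors that already wait in the nucleus. SRF, with its ERK-regulated partners, binds the CArG box, and CREB or JUN-ATF dimers bind the cyclic AMP response element (CRE). FOS and JUN proteins then pair into the factor AP-1, EGR1 acts as a zinc finger activator, and DUSP1 removes phosphate from the MAP kinases and so ends the signal. The messages decay within a short time, in part through AUUUA repeats near their ends.

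The values are counts of read pairs normalized between libraries by the authors. From the value that 1 read takes, estimated from the lowest values of each library, the depth came to 22296269 to 28429874 reads. A limit of 3 reads was used for detection, which is a value of 2.84 (parental mean) or 3.17 (resistant mean) and covers counting error only. The class of the line was visible in *POU2F3*, between 24511 and 27873 in the 6 libraries. Of 12 markers of small cell lung cancer 10 were tested, of which 7 had fallen (70.0%, against 19.8% of all genes) and 1 had risen in resistant cells, with the neuroendocrine genes *CHGA*, *INSM1* and *SYP* at log2 differences of -4.22, -2.28 and -2.15. Named after their values were seen, *AVIL* and *ASCL2*, also markers of the POU2F3 class, were among the 7, at -0.80 and -0.47. *YAP1*, the marker of another class and likewise named later, was the 1 that had risen, at 1.17. Of 12 markers of blood, fibroblast, endothelial and liver cells, 5 were tested and 3 (*COL1A1*, *VWF* and *COL1A2*) were higher in resistant cells, or 60.0% against 17.8% of all genes. The others, *COL3A1* and *CD14*, were at log2 differences of -0.73 and -0.44 and did not pass the threshold. Their sum over the 12 genes was 404 to 550 in parental and 858 to 1063 in resistant libraries, *CD3E* and *CDH5* were listed at 0 throughout, and *PTPRC* and *PECAM1* did not pass 1.92. The part of these genes in the results below was not tested.

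The promoters of the group were searched first, for elements of the kinds named above. RefSeq windows of GRCh38.p14 were matched for 8 of the 10 genes, and *IER3* and *MCL1* were not matched. The full CRE, TGACGTCA, was searched as TGACNTCA, which allows any base at N, and not with changes at its other positions. The CRE core is TGACG, which also lies within TGACGTCA. The 250 bases before each start site were searched on both strands for the CArG box, TGACNTCA, TGACG and the TATA box (TATAAA). The last 150 of these bases are shown for 6 genes that carry the different arrangements, 5′ to 3′, with every match in capitals. A CRE core on the other strand reads CGTCA.
EGR1: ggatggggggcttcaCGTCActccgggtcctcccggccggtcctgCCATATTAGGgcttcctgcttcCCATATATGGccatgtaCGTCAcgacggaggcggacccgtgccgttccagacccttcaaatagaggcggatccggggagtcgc
JUN: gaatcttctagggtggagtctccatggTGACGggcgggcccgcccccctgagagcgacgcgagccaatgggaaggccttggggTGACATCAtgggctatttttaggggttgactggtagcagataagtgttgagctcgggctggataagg
DUSP1: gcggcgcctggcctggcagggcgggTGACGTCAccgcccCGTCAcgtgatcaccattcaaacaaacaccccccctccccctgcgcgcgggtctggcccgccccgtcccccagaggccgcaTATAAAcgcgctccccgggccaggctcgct
FOS: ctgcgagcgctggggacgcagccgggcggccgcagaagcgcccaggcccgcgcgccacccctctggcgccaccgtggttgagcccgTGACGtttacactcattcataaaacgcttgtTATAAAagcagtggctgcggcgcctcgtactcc
FOSB: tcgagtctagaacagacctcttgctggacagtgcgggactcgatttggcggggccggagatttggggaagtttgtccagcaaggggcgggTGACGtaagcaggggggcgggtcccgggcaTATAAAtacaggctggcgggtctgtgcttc
IER2: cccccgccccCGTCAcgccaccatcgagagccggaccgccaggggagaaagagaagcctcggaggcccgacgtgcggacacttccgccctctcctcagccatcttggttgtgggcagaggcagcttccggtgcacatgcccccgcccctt
These windows are chr5:138465329-138465478 (plus strand) for *EGR1*, chr1:58784048-58784197 (minus strand) for *JUN*, chr5:172771196-172771345 (minus strand) for *DUSP1*, chr14:75278678-75278827 (plus strand) for *FOS*, chr19:45467846-45467995 (plus strand) for *FOSB* and chr19:13150261-13150410 (plus strand) for *IER2*.

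*EGR1* held a pair of CArG boxes, 105 to 96 and 83 to 74 bases before the start site, and was the only one of the 8 genes with a match, against 1.16% of 35116 promoter windows. The element TGACNTCA was present in *JUN*, *DUSP1* and *ATF3*, against 6.87% of all windows. In *JUN* it began 67 bases before the start site and read TGACATCA, and in *DUSP1* it began at 125 bases and was the palindrome TGACGTCA. The CRE core was found in 7 genes, *ATF3* being the one without it, against 21.2% of all windows. *FOS*, *FOSB*, *JUNB* and *DUSP1* had a TATA box that began 30 to 33 bases before the start site, against 10.7% of windows with one anywhere. *ATF3* has a second RefSeq start site, whose window held a TATA box 230 to 225 bases away and no other match. A match is a sequence of letters and was not measured as a bound site, and a window without one says only that these letters are not in it.

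**Figure D1:**
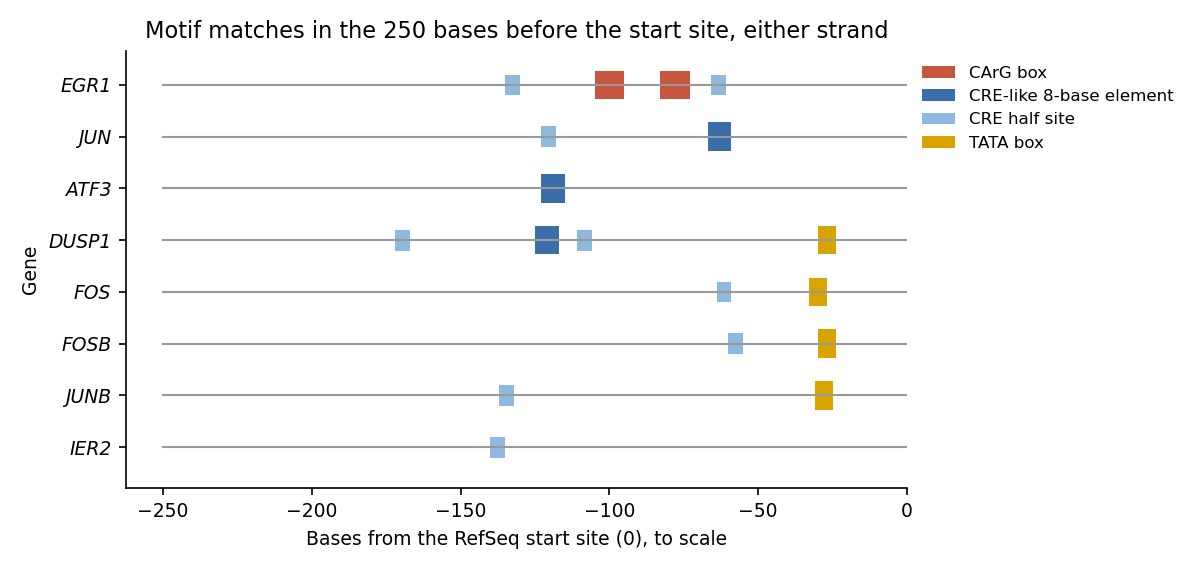
Motif matches on either strand in the 250 bases before the RefSeq start site (x axis, bases, start site at 0) of 8 immediate early genes (y axis), with coloured boxes for the 4 motifs drawn to scale, and for *ATF3* the window of its first start site. Within these 250 bases a pair of CArG boxes stands in *EGR1* alone, and the TATA boxes of *DUSP1*, *FOS*, *FOSB* and *JUNB* line up near 30 bases.

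Other shared features were read from the Gencode v44 annotation. The 10 genes had a median span of 4.16 kb and a median of 2.5 exons in the canonical transcript, against 34.4 kb and 9 exons for 13532 protein-coding genes tested. *JUN* and *JUNB* have a single exon. In the 3′ UTR the DNA form of the AUUUA motif occurred at least once in 9 of the 10 genes, against 72.8% of 13480 genes, and 3 or more times in 7 of the 10, against 46.9%. Its density was highest in *IER3*, at 8.14 per kb, followed by *FOS* at 6.20 and *DUSP1* at 6.01, with a median of 1.66 over all genes. *IER2* had none.

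In parental cells the levels per kb of transcript ran over a wide range. *MCL1* was highest with a normalized value of 2740 ± 122 per kb (SD, n = 3), followed by *IER2* at 1192 ± 26.9 and *JUN* at 1041 ± 158 per kb, and these last ranges overlapped. *JUNB* stood at 560 ± 46.1 per kb, *IER3* at 145 ± 11.0 and *DUSP1* at 134 ± 14.2, the last pair again overlapping. *ATF3* followed at 73.0 ± 11.7 per kb. *FOS* was at 19.5 ± 2.05, *EGR1* at 14.1 ± 1.75 and *FOSB* at 3.33 ± 1.63 per kb, and these 3 were the lowest of the 10. In resistant cells *DUSP1*, at 46.3 ± 8.71 per kb, overlapped *ATF3* at 51.8 ± 9.96, and *JUN* at 941 ± 29.7 lay above *IER2* at 820 ± 23.0 without overlap. Summed per kb, the JUN family (*JUN*, *JUNB*, *JUND*) exceeded the FOS family (*FOS*, *FOSB*, *FOSL1*, *FOSL2*) by 56.0 to 80.1 times in parental and by 51.8 to 68.7 times in resistant libraries. *JUND*, chosen after its values were seen, made up 41.5% to 48.7% of the JUN family in the 6 libraries.

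**Figure D2:**
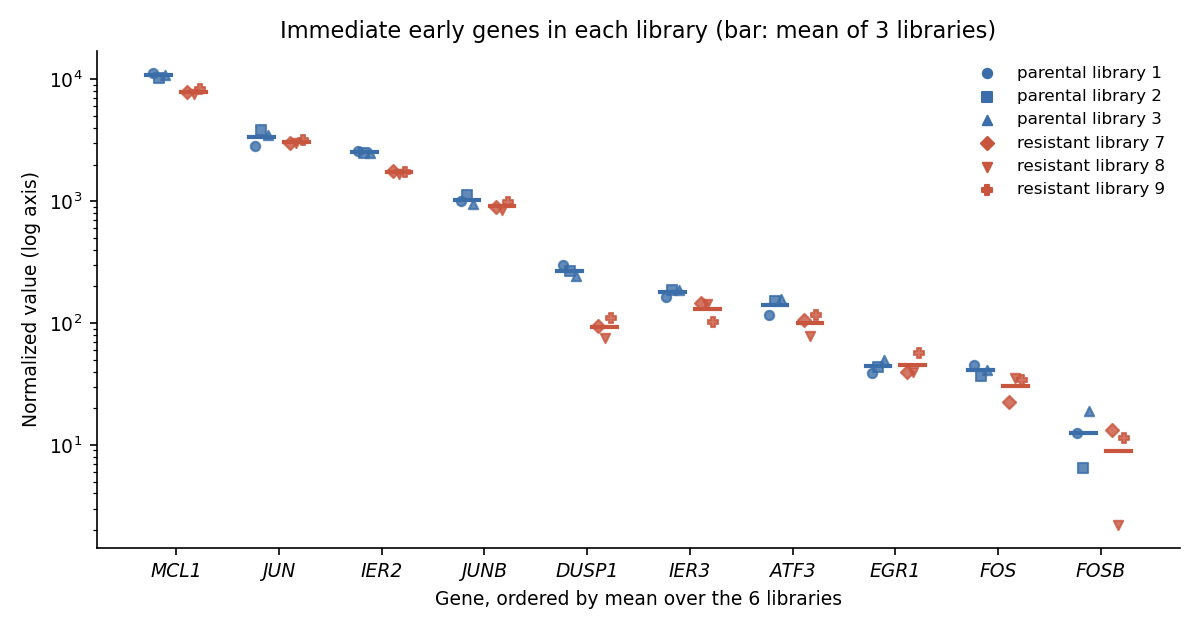
Normalized value (y axis, log scale) of each of the 10 genes (x axis, ordered by mean) in every parental (blue) and resistant (red) library, with a bar at the mean of 3 libraries. *DUSP1* shows the widest gap between the groups, and *EGR1* and *JUN* overlap.

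The question of the comparison is which messages differ between cells that grow in onvansertib and the cells they came from. The 10 genes count as selected on this difference, since they were proposed by name with the parental and resistant values of these libraries already known, so their differences are given as a description and carry no test. Differences are resistant minus parental, on the log2(value + 1) scale, with a standard error (SE) and a 95% interval from limma. On that scale 9 of the 10 genes were below 0, *EGR1* being the exception, with a median of -0.46, against -0.00086 over the 16347 genes tested, of which 50.1% were below 0. *EGR1*, too, was below 0, at -0.15, with quantile normalization. The limma threshold of an adjusted p under 0.05 was met by 3 of the 10, *DUSP1*, *IER2* and *MCL1*, all lower in resistant cells, which is 30.0% of the group. Over all genes 37.7% met it, 19.8% as lower and 17.8% as higher. Parental and resistant values did not overlap for 5 of the 10 genes, *DUSP1*, *IER2*, *MCL1*, *IER3* and *FOS*, all lower in resistant cells. The same held for 49.9% of all genes tested, 25.9% lower and 24.0% higher, and an exact permutation test of 3 libraries against 3 cannot go below p = 0.10.

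*DUSP1* (ENSG00000120129), the nuclear MAP kinase phosphatase, lies on chromosome 5 of GRCh38 from 172768096 to 172771195. Its value was 299, 268 and 242 in parental libraries 1, 2 and 3 and 95.04, 75.0 and 110 in resistant libraries 7, 8 and 9. All resistant libraries were far below all parental ones, and the resistant mean was 34.6% of the parental mean. The log2 difference was -1.53 (SE 0.18), with an interval from -1.94 to -1.12, and 94.9% of all genes tested had a smaller absolute difference. The 51 tested genes around it on the chromosome had a median difference of -0.33, which leaves -1.20 after it is subtracted. Its promoter is the one above with the palindromic CRE, and any part of that element in the difference was not tested.

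*IER2* (ENSG00000160888), a short-lived nuclear protein, lies on chromosome 19 from 13150411 to 13154911. It was at 2579, 2471 and 2494 in parental and at 1778, 1681 and 1731 in resistant libraries, a set of values with little spread inside either group. The log2 difference was -0.54 (SE 0.06), with an interval from -0.68 to -0.40. Its neighbours had a median of -0.13, and it stood at -0.41 relative to them.

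*MCL1* (ENSG00000143384), an anti-apoptotic member of the BCL2 family, lies on chromosome 1 from 150560895 to 150579738. It was at 11221, 10284 and 10960 in parental and at 7925, 7564 and 8282 in resistant libraries. The resistant mean was 73.2% of the parental mean with no overlap, the log2 difference was -0.45 (SE 0.06), and the interval ran from -0.59 to -0.31. The genes around it had a median of -0.02. *MCL1* shares 328 exon bases with *ADAMTSL4-AS1* on the same strand and 43 with *ADAMTSL4* on the other, whose mean values did not pass 18.8 in either group.

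*IER3* (ENSG00000137331), an ERK target that acts on cell survival, was at 163, 187 and 187 in parental and at 145, 143 and 102 in resistant libraries. The groups were apart, though resistant libraries 7 and 8 lay close to parental library 1. Its log2 difference was -0.47 (SE 0.18), with an interval from -0.88 to -0.06. *IER3* shares 440 exon bases with *IER3-AS1* on the other strand, at means of 20.6 and 20.1. *ATF3* (ENSG00000162772), a stress-induced leucine zipper factor, was at 116, 152 and 158 in parental and at 106, 79.0 and 116 in resistant libraries. Resistant library 9 reached the level of parental library 1, so the groups touched. The difference was -0.50 (SE 0.21), with an interval from -0.97 to -0.03. Neither gene was past the threshold, but with quantile normalization both were, which gave 5 genes in place of 3.

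Of the AP-1 genes, *JUN* (ENSG00000177606) was at 2823, 3833 and 3513 in parental and at 3020, 3000 and 3177 in resistant libraries. Parental library 1 was the lowest of all 6 and the other parental libraries were the highest, so the groups overlapped. The log2 difference was -0.13 (SE 0.10), with an interval from -0.36 to 0.09, and without parental library 1 it was -0.26 and past the threshold. *JUNB* (ENSG00000171223) was at 1005, 1116 and 951 in parental and at 904, 841 and 992 in resistant libraries, with overlap. Its difference was -0.17 (SE 0.10), with an interval from -0.38 to 0.05, close to the -0.20 of the genes around it. *JUNB* shares 259 exon bases with *HOOK2* on the other strand, which was at 984 in parental and 914 in resistant cells on average. A strand setting of the counting is not given in the sources used here, so reads of the shared bases may not have been told apart.

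*FOS* (ENSG00000170345) was at 45.3, 36.7 and 41.3 in parental and at 22.5, 35.5 and 34.1 in resistant libraries. The highest resistant value fell just short of the lowest parental one. The difference was -0.43 (SE 0.29), with an interval from -1.08 to 0.22, while the genes around it on chromosome 14 had a median of 0.36. Relative to these neighbours *FOS* stood at -0.79. *FOSB* (ENSG00000125740) was at 12.5, 6.47 and 18.8 in parental and at 13.2, 2.19 and 11.5 in resistant libraries. The value in resistant library 8 was under the limit of 3 reads, 3.13 there, and the groups overlapped. Its interval, from -2.06 to 0.85, covers a fall as well as a rise. *FOSB*, with a mean of 10.8 over the 6 libraries, was also the gene nearest to the minimum mean of 10 for testing.

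*EGR1* (ENSG00000120738), the gene with the CArG boxes above, was at 39.2, 43.7 and 50.1 in parental and at 39.7, 39.6 and 57.1 in resistant libraries. Both groups covered the same range. The log2 difference was 0.02 (SE 0.27), and its interval from -0.57 to 0.61 does not exclude a change of the size of that of *IER2* in either direction. A smaller difference was not detectable at this level and depth.

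**Figure D3:**
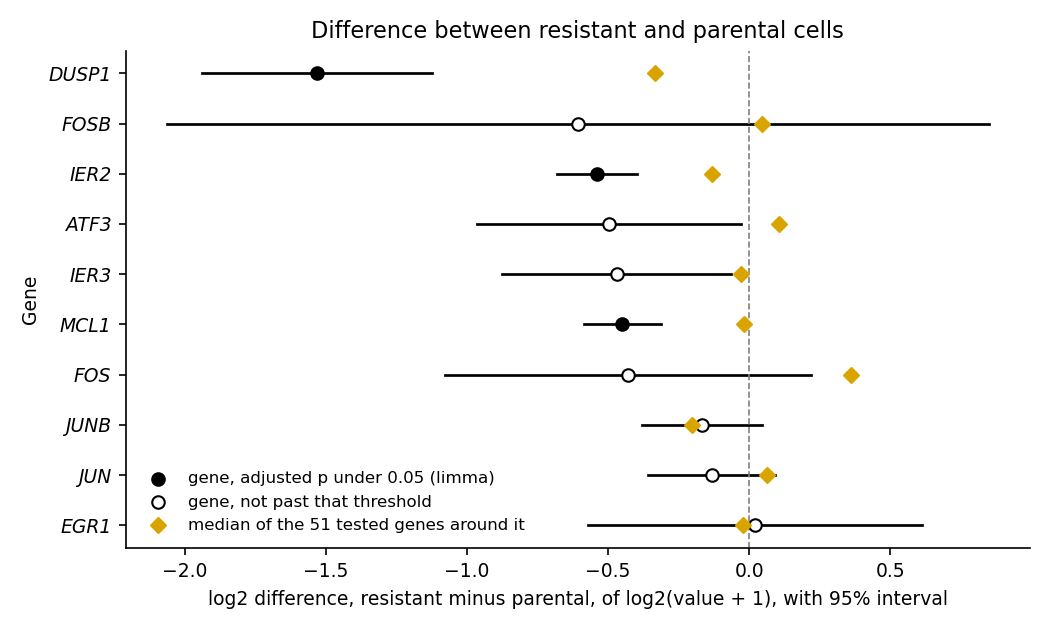
log2 difference, resistant minus parental, of log2(value + 1) (x axis) for the 10 genes (y axis), as circles with 95% intervals, filled where the adjusted p of limma was under 0.05. Diamonds mark the median of the 51 tested genes around each gene, which is -0.33 for *DUSP1* and 0.36 for *FOS*.

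The spread between libraries of the same group does not depend on the contrast. As an SD of log2(value + 1) inside the groups it had a median of 0.22 over the 10 genes, against 0.15 over all genes tested, and it was above the latter in 7 of the 10. *FOSB* varied most, with 0.98, and *IER2* least, with 0.04, and 1.76% of all genes had a smaller SD. The SD also depends on the level, and *FOSB*, *FOS* and *EGR1* had means under 50. Resistant library 9 was above its group mean in 9 of the 10 genes, with *IER3* as the exception, and resistant library 8 in only 2, *FOS* and *IER3*. In the parental libraries the number above the mean was 5, 4 and 7. The matching shares over all genes tested were not computed, so these counts are not read as a trait of the 10 genes. The genes did not move as 1 block: over the 45 pairs of genes, the correlation of these deviations across the 6 libraries had a median of 0.12 and ranged from -0.78 to 0.79. Among the 5 genes whose deviations were most like those of *JUN* over the 6 libraries were *PANK4*, *SNED1*, *PSTPIP2* and *TRIM65*, with a Pearson r of 0.997 to 0.999. With 6 libraries, 536 of 16346 genes (3.28%) had an r over 0.9. None of the other 9 immediate early genes did, which at so small a share says little about them.

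**Figure D4:**
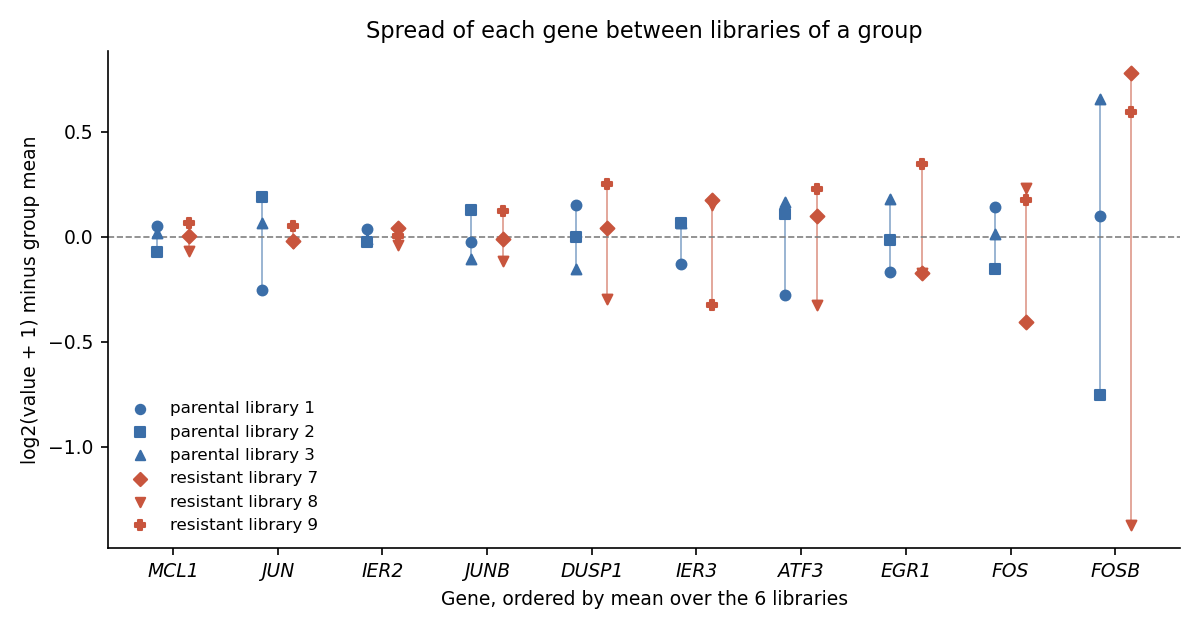
Deviation of log2(value + 1) from the group mean (y axis) for the 10 genes (x axis) in each parental (blue) and resistant (red) library, with a line over the range of a group. *FOSB* spans the widest range and *IER2* and *MCL1* the narrowest.

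Beyond the 10, a list of 39 other early response genes was examined, of which 26 had a mean of at least 10. The other 13, among them *EGR2*, *EGR3*, *EGR4*, *FOSL1*, *ARC*, *NPAS4*, *MYC* and *PLK2*, did not pass 14.7 in any library. Of these, *EGR3*, an EGR1 relative singled out after its values were seen, was at 0, 0 and 2.42 in parental and at 8.80, 10.96 and 6.64 in resistant libraries, so that all parental values lay under the limit of 3 reads and all resistant values above it. Of the 26 tested, 8 were lower and 3 higher in resistant cells (42.3% called, against 37.7% of all genes), with a median log2 difference of -0.04. *NR4A1*, an orphan nuclear receptor, fell from 1191 ± 89.7 to 701 ± 54.0 (SD, n = 3), a log2 difference of -0.76 (adjusted p = 0.000174 by limma). The genes around it on chromosome 12 had a median of -0.53, and relative to them the difference was -0.23 and no longer past the threshold (adjusted p = 0.0812 by limma, the highest of its 14 alternatives, the lowest being 0.000138). *IER5L*, a relative of *IER2*, fell from 241 ± 22.8 to 123 ± 15.8 (adjusted p = 0.00108 by limma, SD, n = 3). *MAFF*, a small MAF leucine zipper protein, rose from 245 ± 32.6 to 475 ± 47.4 (adjusted p = 0.000435 by limma, SD, n = 3). *NR4A3* and *SIK1*, chosen after their values were seen, also lay among genes that differed: *NR4A3* had a log2 difference of -0.81 beside -0.87 for its neighbours on chromosome 9, and *SIK1* one of 0.51 beside 1.25 for its neighbours on chromosome 21.

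A list of 22 genes of ERK feedback and output also held phosphatases that act mainly on other MAP kinases, such as *DUSP8*. Of the 22, 20 were tested, and 4 were higher and 3 lower in resistant cells, with a median log2 difference of -0.13. That is 20% higher and 15% lower, near the 17.8% and 19.8% of all genes. *DUSP4*, which like *DUSP1* acts on MAP kinases in the nucleus, rose from 45.7 ± 5.81 to 180 ± 25.6 (SD, n = 3), a log2 difference of 1.95 (adjusted p = 6.14e-05 by limma). *DUSP8*, which acts mainly on JNK and p38, fell from 1242 ± 158 to 552 ± 56.4 (adjusted p = 4.34e-05 by limma, SD, n = 3). *PHLDA1* rose from 68.0 ± 11.9 to 150 ± 20.05 (adjusted p = 0.00192 by limma, SD, n = 3). *DUSP6*, the ERK phosphatase of the cytoplasm and a later choice made with its values in view, fell from a mean of 26.1 to 9.97 (adjusted p = 0.0300 by limma), among chromosome 12 genes with a median of -0.42. Of the 9 DUSP genes of this list, counted after their values were seen, *DUSP4* was higher and *DUSP2*, *DUSP6* and *DUSP8* were lower. *DUSP5*, *DUSP7*, *DUSP10*, *DUSP14* and *DUSP16* did not pass the threshold. Without a filter on low values only 1 gene of the list was past it as lower, *DUSP8*, and with quantile normalization 2 were.

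Of 34 genes of the MAP kinase cascades all were tested, with a median log2 difference of -0.06. In resistant cells 8 were higher (23.5%) and 5 lower (14.7%), against 17.8% and 19.8% of all genes. Without resistant library 9 the number called was 8 in place of 13. *SHC1*, an adaptor below receptor tyrosine kinases, fell from 1859 ± 51.1 to 1299 ± 49.9 (SD, n = 3). *PTPN11*, the phosphatase SHP2 that promotes RAS signals, fell from 5680 ± 271 to 4164 ± 293 (SD, n = 3), with a log2 difference of -0.45 beside -0.42 for its neighbours on chromosome 12. *MAPK10*, the JNK of neurons, rose from 32.7 ± 2.06 to 118 ± 27.0 (SD, n = 3). The largest adjusted p of these 3 genes was 0.000768 by limma, but relative to its neighbours *PTPN11* was at -0.03 and no longer past the threshold (adjusted p = 0.772 by limma, with a lowest value of 0.0006 over the 14 alternatives).

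Of 18 factors that act on the CArG box or the CRE, and their partners, 17 were tested, with a median log2 difference of -0.03. In resistant cells 4 were higher (23.5%) and 6 lower (35.3%), against 17.8% and 19.8% of all genes. Without resistant library 7 the number called was 6 in place of 10. *ATF1*, a CREB relative, fell from 692 ± 88.5 to 425 ± 32.4 (SD, n = 3). *ATF7*, a leucine zipper partner of JUN, fell from 1136 ± 59.9 to 775 ± 58.9 (SD, n = 3), a log2 difference of -0.55 beside a neighbour median of -0.47 on chromosome 12. *NFKBIA*, which the list also holds though it is an inhibitor of NF-kB and binds neither element, rose from 388 ± 21.6 to 651 ± 42.9 (SD, n = 3), a log2 difference of 0.74 beside 0.51 for its neighbours on chromosome 14. The largest adjusted p of these 3 genes was 0.00129 by limma, and relative to their neighbours *ATF7* and *NFKBIA* were no longer past the threshold (adjusted p = 0.491 and 0.134 by limma, with lowest values of 0.000729 and 0.000245 over the 14 alternatives). *SRF* itself, a choice made with its values in view, had means of 4599 and 3751 and was past the threshold as lower (adjusted p = 0.00862 by limma).

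The cytoskeletal genes that SRF drives with the MRTF coactivators had a median log2 difference of 0.25. Of 19, 18 were tested, with 7 higher (38.9%) and 3 lower (16.7%), against 17.8% and 19.8% of all genes. The 3 lower ones, named after their values were seen, were *TAGLN2*, *FLNA* and *FHL1*, at -0.42, -0.22 and -0.51. The genes around them had medians of 0.04, -0.20 and 0.02. Around the 7 higher genes these medians ran from -0.33 for *ZYX* to 0.49 for *TPM1*, which was itself at 0.66. *VCL*, which encodes vinculin of focal contacts, rose from 2636 ± 156 to 3690 ± 167 (SD, n = 3), and *CNN2*, a calponin of the actin fibres, from 547 ± 35.3 to 957 ± 130 (SD, n = 3). *TGFB1I1*, a focal contact protein, rose from 4.60 ± 1.999 to 80.5 ± 14.3 (SD, n = 3), with the parental values near the limit of detection. The largest adjusted p of the 3 was 0.000424 by limma. *EGR1* and *FOS*, which SRF drives with its other partners, were not among the genes past the threshold. Both had means under 50, with wide intervals, from -0.57 to 0.61 for *EGR1* and from -1.08 to 0.22 for *FOS*. A contrast between them and the cytoskeletal genes was not tested.

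*ATF3* and *MCL1* are also reached through the ATF4 arm of the stress response and through protein turnover. Of 20 genes of the ATF4 arm, 19 were tested, with a median of -0.15. In resistant cells 2 were higher (10.53%) and 6 lower (31.6%), against 17.8% and 19.8% of all genes. *SLC7A5*, an amino acid transporter, fell from 12959 ± 709 to 7309 ± 386 (SD, n = 3), and *SHMT2* of serine metabolism from 9147 ± 236 to 6133 ± 163 (SD, n = 3). *EIF2AK4*, the kinase GCN2 that senses a lack of amino acids, rose from 2136 ± 74.1 to 3475 ± 152 (SD, n = 3). The largest adjusted p of the 3 was 3.86e-05 by limma, but *SHMT2* had a difference of -0.58 beside -0.64 for its neighbours on chromosome 12. Of 14 genes that bind MCL1 or set its turnover, 13 were tested, with a median of -0.08. Among them 2 were higher (15.4%) and 4 lower (30.8%), against the same 17.8% and 19.8%. *FBXW11*, a subunit of a ubiquitin ligase, fell from 2050 ± 39.6 to 1092 ± 104 and *BCL2L1*, which encodes the relative BCL-XL, from 2457 ± 123 to 1752 ± 66.9 (SD, n = 3). *HUWE1*, the ligase MULE that marks MCL1 protein for decay, rose from 27546 ± 1790 to 46267 ± 8657 (SD, n = 3), with resistant library 9 the lowest of its group at 36511. The largest adjusted p of these 3 was 0.001 by limma. The MCL1 protein was not measured here.

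AUUUA repeats are known to promote decay of messages that carry them, though decay was not measured here. Of 20 genes of that pathway, all tested, 4 were higher (20%) and 3 lower (15%), against 17.8% and 19.8% of all genes. Their median was -0.00073. *ZFP36*, which binds AUUUA repeats and is itself an immediate early gene, rose from 254 ± 23.3 to 423 ± 63.6 (adjusted p = 0.00272 by limma, SD, n = 3). *CNOT7*, a deadenylase, fell from 2985 ± 151 to 2139 ± 262, and *CNOT6L*, another deadenylase, rose from 778 ± 62.9 to 1247 ± 264 (SD, n = 3), with adjusted p of 0.00209 and 0.00397 by limma. Of 15 heat shock genes 14 were tested, with a median of -0.20. Among them 5 were lower (35.7%) and 2 higher (14.3%), against 19.8% and 17.8% of all genes. *HSPE1*, a mitochondrial chaperonin, fell from 2404 ± 39.1 to 1494 ± 40.9, *DNAJB1* from 2215 ± 103 to 1643 ± 62.0 and *HSPA1A* from 8832 ± 297 to 6627 ± 161 (SD, n = 3), with a largest adjusted p of 0.000955 by limma. *HSPA1A* and *HSPA1B* are near-identical copies whose reads the counting could have split. The summed heat shock values overlapped, with 229901 to 266041 in parental and 234701 to 256051 in resistant libraries, and the part of these genes in the results was not tested.

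**Figure D5:**
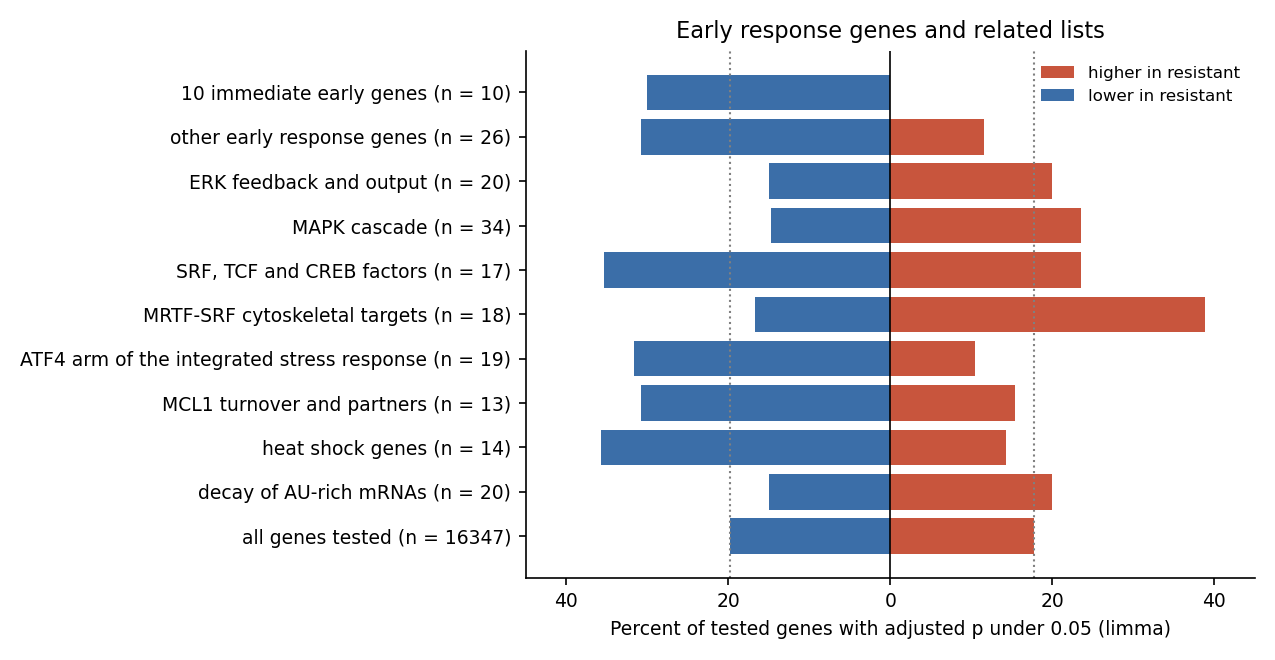
Percent of tested genes (x axis) with an adjusted p under 0.05 by limma, lower (blue, left) or higher (red, right) in resistant cells, for the 10 immediate early genes and 9 related lists (y axis). Dotted lines mark the 19.8% lower and 17.8% higher of all 16347 genes tested.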

How the data were processed

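RNA-seq libraries of parental (n = 3) and onvansertib-resistant (n = 3) H526 cells were used. The authors trimmed reads with Trimmomatic 0.38, aligned and quantified them with RSEM 1.3.1 (GRCh38, Gencode v43), and scaled gene counts between libraries with DESeq2 1.30.0, as the methods and the submitters' processing notes state. What the authors deposited is this normalized count, treated here as a signal, without division by gene length. Between 49.0% and 62.5% of low values lay within 0.05 of a whole multiple of the value of 1 read, so whole reads could not be restored and count models were not used. Of 62757 rows, 47 second copies of pseudoautosomal genes were left out, and 62639 of the other 62710 had a symbol in Gencode v44 (GRCh38), matched without the version of the identifier. Lengths are those of canonical transcripts.

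Genes with a mean of at least 10 were tested in limma 3.58.1 under R 4.3.3 on log2(value + 1), in a model of group alone with an intensity trend. Adjustment by Benjamini-Hochberg covered all genes tested, at 0.05. This was tested on simulated data with 200 changed genes and the same dispersion setting for every gene. These settings differ from the data, so that test does not measure the error of the calls here. Replicates share no culture label, so p-values measure the spread between harvests, which may be technical. The members and lists were chosen with earlier results of these data known, so the adjusted p-values of listed genes are a description as well. Named are the members, up to 3 genes of smallest p past the threshold per list, and the 5 genes whose deviations from group means correlate most with those of whichever of *FOS*, *JUN* and *EGR1* has the highest mean. Other names are marked where they occur, and some genes that the rule names are not reported here. Alternatives were other pseudocounts (0.1 and 10), other filters (none, or a mean of at least 50), other scalings (TMM or quantile), no trend, subtraction of the median difference of 51 neighbouring genes, and each library left out. Python 3.11.15 was used for other steps.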

Additional observations from a re-analysis of the deposited data

How the results depend on the processing

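As a description, since the genes were selected on this contrast, the log2 differences of *DUSP1*, *IER2* and *MCL1* lay between -1.66 and -1.20, between -0.56 and -0.41 and between -0.49 and -0.33 over the 14 alternatives, which refit the same values. The number of the 10 genes called was 5 with quantile normalization, and 3 to 4 when single libraries were left out. *JUN* was the fourth, without parental library 1. *FOS*, *FOSB* and *EGR1* were not tested at a minimum mean of 50, and *FOSB* had a difference of 0.08, in place of -0.61, when resistant library 8 was left out, and was below the minimum mean without parental library 3. With local centring *JUNB* was at 0.04. The number of called CArG box and CRE factors was 6 with local centring and 6 to 11 when single libraries were left out. For the cascade genes that range was 8 to 11, and for genes of mRNA decay the number was 3 without the trend. *SHMT2* changed sign with local centring, to 0.064 (adjusted p = 0.417 by limma), which the subtraction of its neighbours itself produces. Over all genes the number called ranged from 4784 to 6228. No paired analysis was possible because the labels share no replicate number and, though RNA of both lines was taken at 3 separate times, no source used here says which parental library goes with which resistant one. Depth limits *FOSB*, *FOS* and *EGR1* most, with means under 50.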

Other observations

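A few stress-responsive genes of the lists varied widely between libraries of the same group. *BHLHE40*, a clock and hypoxia repressor, was at 91.1, 431 and 156 in parental libraries 1, 2 and 3 and at 124, 569 and 241 in resistant libraries 7, 8 and 9. *DDIT4*, an inhibitor of mTOR signals, was at 454, 1863 and 752 in parental and at 298, 946 and 380 in resistant libraries. *FOSL2*, an AP-1 gene, was at 82.0, 275 and 91.2 in parental and at 140, 210 and 151 in resistant libraries. All 3 were chosen after their values were seen, and were highest in parental library 2 and in resistant library 8. None differed between the groups past the threshold of limma, with adjusted p of 0.546, 0.204 and 0.4996. With this spread the 95% intervals were wide, from -0.81 to 1.79, -1.96 to 0.25 and -0.51 to 1.24, so a difference is not excluded. *JUN* was also highest in parental library 2, but in resistant library 9 of the other group.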
